A study of Mus musculus with 3 samples.

Results

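The R-spondins, their Lgr receptors and the 2 ubiquitin ligases that they control were examined in the mouse posterior frontal suture, a joint on the midline of the skull that lies between the frontal bones. The 9 genes are Rspo1, Rspo2, Rspo3, Rspo4, Lgr4, Lgr5, Lgr6, Znrf3 and Rnf43. Their probes were taken by symbol alone, as every non-control probe that the scanner files name for one of them, which gave 11 probes. The genes themselves were chosen with earlier results of these data known. They are 9 of the 35019 genes on the array, where 32275 have a symbol and the other 2744 are probes with only an identifier, counted as genes here. Sutures came from C57BL/6 mice in 3 groups: Runx2+/- mice at postnatal day 7 (P7), wild-type mice at P7 and wild-type mice at P5. Each group has 1 one-colour array of total RNA labelled with Cy3. The labels give neither the number of mice behind an array nor the part of Runx2 that the mutant allele lacks. With 1 array per group there is no replicate error, no difference here has a p-value, and each one compares 2 hybridised samples.

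R-spondins are secreted proteins that make cells more sensitive to Wnt ligands. They bind Lgr4, Lgr5 or Lgr6 together with Znrf3 or Rnf43, which are membrane ubiquitin ligases that remove Frizzled receptors from the cell surface. Clearing the ligases leaves more receptor for Wnt. Lgr5 is itself a Wnt target in several tissues and a stem cell marker in the intestine, and Znrf3 and Rnf43 are targets that act as negative feedback. Runx2 is the transcription factor that osteoblast differentiation requires.

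Rspo1, Rspo3 and Lgr5 were well above background on every array. All 3 were higher on the Runx2+/- P7 array than on the wild-type P7 array by 2-fold or more, where 5.2% of all genes compared were, and Lgr5 was 5.84-fold higher. None of the 3 was 2-fold apart between the wild-type P7 and P5 arrays, where 9.61% of genes were. Rspo2 and Lgr4 were well above background only on the Runx2+/- P7 array, and Rspo4 and Rnf43 on none. Of all probes, 47.3% were well above background on the Runx2+/- P7 array, 29.2% on the wild-type P7 array and 40.1% on the wild-type P5 array. Rspo2 was at least 1.07-fold higher on the Runx2+/- P7 array than on the wild-type P7 array, and Lgr4 could not be ordered between arrays.

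The array reads each gene through a 60-base probe, and the first 30 bases of the probes that the results turn on are given below, 5′ to 3′ as the files give them. They show what was hybridised, and in Lgr5 which of the 2 probes carried the signal. Positions are those of the files, on mm9, for the bases printed.
Rspo1, chr4:124686270-124686299, plus strand: ccgtggtacacgtcacggatgacctgactt
Rspo2, chr15:42852757-42852786, minus strand: ccttaggtcagtttgtccttagattatgaa
Rspo3, chr10:29172960-29172989, minus strand: ggatactactttctaacaaggtgtatctag
Lgr5, brighter probe, chr10:114887433-114887462, minus strand: catgtaaatacgtagtgcttgtaaatagat
Lgr5, other probe, chr10:114900716-114900745, minus strand: acctctagtgcttatatagaaacttgtgtg
The files assign these probes to NM_138683 (Rspo1), NM_172815 (Rspo2), NM_028351 (Rspo3), NM_010195 (brighter Lgr5 probe) and ENSMUST00000105272 (other Lgr5 probe). Whether a probe lies in coding or untranslated sequence was not looked up. GC content was 41.7% in the whole Rspo1 probe and 35% in both the Rspo3 and the brighter Lgr5 probe, against a median of 43.3% over all probes. Each member probe had 1 spot per array, and none was called an outlier.

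The scanner software's quality result was in range for the Runx2+/- P7 and wild-type P5 arrays, and marked the wild-type P7 array for evaluation. The median percent coefficient of variation of processed signal was 8.10 there, 6.95 on the wild-type P5 array and 5.35 on the Runx2+/- P7 array. Spots called outliers numbered 163, 111 and 128 on these arrays, in that order. The wild-type P7 array enters the genotype and age comparisons. The arrays also differed in brightness, which sets what can be seen of dim genes. The Runx2+/- P7 array had 26352 of 55680 probes (47.3%) well above background, the wild-type P7 array 16257 (29.2%) and the wild-type P5 array 22316 (40.1%). Their 75th percentiles of signal were 124.3 (Runx2+/- P7), 22.8 (wild-type P7) and 52.1 (wild-type P5) intensity units. Levels below are therefore given as log2 units above the array's own 75th percentile, and differences as differences of such levels. On this scale the lowest level well above background was -3.25 on the Runx2+/- P7 array, -0.78 on the wild-type P7 array and -2.12 on the wild-type P5 array. A gene above background on both arrays has a measured difference, and a gene above it on 1 array has a lower bound, kept where that array exceeds the other's lowest level. Other genes have no order. From probes spotted repeatedly, the SD of a log2 difference was 0.22 for Runx2+/- P7 against wild-type P7, 0.25 for wild-type P7 against P5 and 0.20 for Runx2+/- P7 against wild-type P5. The root mean square of the SD between different probes of 1 gene was larger, at 0.56 for the first of these comparisons, 0.46 for the second and 0.70 for the third. Both spreads come from spots or probes on the same arrays and do not measure variation between mice. Differences also grew towards the 3′ end of transcripts, by a median of 0.14, 0.16 and 0.34 log2 units per kb.

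The Runx2 gene itself was read by 3 probes. The brightest had a processed signal of 262.2 on the Runx2+/- P7 array, 62.4 on the wild-type P7 array and 271.0 on the wild-type P5 array. After scaling it was 1.30-fold lower in Runx2+/- than in wild type at P7, a log2 difference of -0.38. The other 2 Runx2 probes had no order between the P7 arrays. On the Runx2+/- P7 array against wild-type P5, the brightest Runx2 probe was 2.47-fold lower, a second was 1.97-fold lower and the third, of a different transcript identifier, was at least 1.67-fold higher. Since the allele is not described, these probes may lie outside what it lacks, and they do not check the labels. Markers of the labelled tissue were present: all 12 osteoblast genes and 7 of 8 suture mesenchyme genes examined were well above background on each array, the exception being Axin2.

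**Figure D1:**
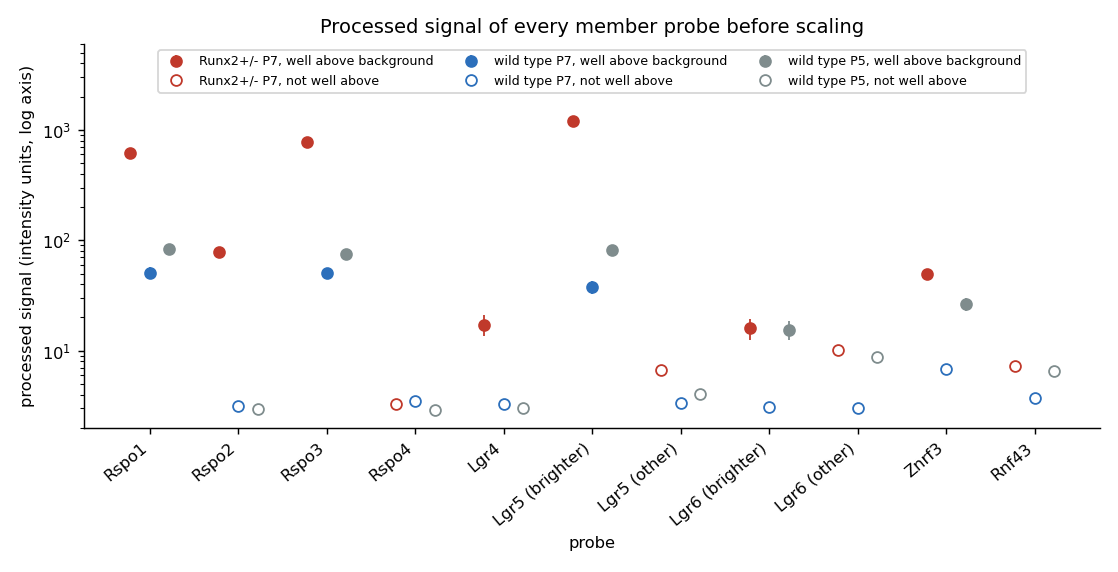
Processed signal (intensity units, log axis) of each of the 11 probes of the 9 genes on the Runx2+/- P7, wild-type P7 and wild-type P5 arrays, with bars for the scanner software's error. Filled points are well above background. Rspo1, Rspo3 and the brighter Lgr5 probe are filled on all 3 arrays and highest on the Runx2+/- P7 array.

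Among the ligands, Rspo3 gave a processed signal of 782.4 ± 78.3 on the Runx2+/- P7 array, 50.5 ± 6.00 on the wild-type P7 array and 74.8 ± 8.07 on the wild-type P5 array, where ± is the scanner software's error for the spot. Its level was 2.65 on the Runx2+/- P7 array, 1.15 on the wild-type P7 array and 0.52 on the wild-type P5 array. Rspo3, an R-spondin that signals through Lgr4 and Lgr5 and is needed for vascular development in the mouse embryo, was thus highest in the mutant sample. The log2 difference was 1.5 (2.83-fold higher) for Runx2+/- P7 against wild-type P7 and 0.63 (1.55-fold higher) for wild-type P7 against P5. The genotype difference exceeds the SD between probes of a gene, 0.56, and the age difference of 0.63 is nearer to its SD of 0.46.

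Rspo1 had a processed signal of 619.2 ± 62.0 on the Runx2+/- P7 array, 50.6 ± 6.16 on the wild-type P7 array and 84.1 ± 9.01 on the wild-type P5 array. Its level was 2.32 on the Runx2+/- P7 array, 1.15 on the wild-type P7 array and 0.69 on the wild-type P5 array. Rspo1, a ligand with a role in ovary development, thus had the same order of arrays as Rspo3 with smaller steps. The log2 difference was 1.16 (2.24-fold higher) for Runx2+/- P7 against wild-type P7 and 0.46 (1.38-fold higher) for wild-type P7 against P5.

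Rspo2, the ligand needed for limb and lung development in mice, gave 77.8 ± 8.36 on the Runx2+/- P7 array and was not well above background on the wild-type arrays, where the software listed 3.15 at P7 and 2.94 at P5. It was at least 1.07-fold higher on the Runx2+/- P7 array than on the wild-type P7 array, a bound set by the lowest measurable level of the wild-type P7 array. Against wild-type P5 the bound was at least 2.72-fold. Rspo4, whose human counterpart is needed for nail formation, was listed at 3.31, 3.50 and 2.88 on the Runx2+/- P7, wild-type P7 and wild-type P5 arrays and cleared the background on none.

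Among the receptors, the brighter Lgr5 probe gave 1212.7 ± 121.3 on the Runx2+/- P7 array, 38.0 ± 5.07 on the wild-type P7 array and 82.3 ± 8.77 on the wild-type P5 array. Its level was 3.29 on the Runx2+/- P7 array, 0.74 on the wild-type P7 array and 0.66 on the wild-type P5 array. The mutant array therefore stood apart, and the wild-type arrays differed by less than the spread between repeated spots. The log2 difference was 2.55 (5.84-fold higher) for Runx2+/- P7 against wild-type P7 and 0.08 (1.06-fold higher) for wild-type P7 against P5. Before scaling, the Lgr5 signal ratio between the P7 arrays was 31.9, where the ratio of their 75th percentiles was 5.46. The same signal ratio was 15.5 for Rspo3 and 12.2 for Rspo1, so the ratio of each of the 3 exceeded that of the arrays.

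The other Lgr5 probe did not carry this signal. It was listed at 6.70 on the Runx2+/- P7 array, 3.39 on the wild-type P7 array and 4.03 on the wild-type P5 array, and was well above background on none. It lies 13223 bases from the brighter one, on its 5′ side, and the files assign it to another transcript identifier. The Lgr5 result thus rests on 1 probe with 1 spot per array, as do those of Rspo1 and Rspo3.

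Lgr4, a widely expressed receptor that acts in bone formation in mice, gave 17.2 ± 3.69 on the Runx2+/- P7 array and was listed at 3.32 on the wild-type P7 array and 3.04 on the wild-type P5 array. Only the first value is well above background, and at a level of -2.85 it lies under the lowest measurable level of the other arrays, so Lgr4 has no order. Lgr6, a receptor that marks stem cells of the hair follicle, gave 16.0 ± 3.42 on the Runx2+/- P7 array, 3.12 on the wild-type P7 array and 15.6 ± 3.17 on the wild-type P5 array with its brighter probe. It was 2.32-fold lower on the Runx2+/- P7 array than on the wild-type P5 array (log2 difference -1.21). In the dimmest of 8 groups by mean level, 2057 genes with Lgr6 among them, the median of that comparison was -0.62 and the 5th percentile -1.87. Lgr6 ranked 1611 from the highest there, so its difference was common among dim genes. It has no order against the wild-type P7 array, where it was not well above background. Its Runx2+/- level of -2.95 lies under the lowest measurable level of that array, -0.78. The other Lgr6 probe was well above background on no array.

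Of the ubiquitin ligases, Znrf3 gave 49.1 ± 5.57 on the Runx2+/- P7 array, 6.85 on the wild-type P7 array and 26.4 ± 3.63 on the wild-type P5 array. Its signal on the wild-type P7 array did not clear the background. Its level of -1.34 on the Runx2+/- P7 array lies under the lowest measurable level of the wild-type P7 array, -0.78, so Znrf3 has no order between them. Against wild-type P5 its log2 difference was -0.36 (1.28-fold lower), within the SD between probes of a gene. Rnf43 was listed at 7.31, 3.71 and 6.56 on the Runx2+/- P7, wild-type P7 and wild-type P5 arrays and was well above background on none.

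**Figure D2:**
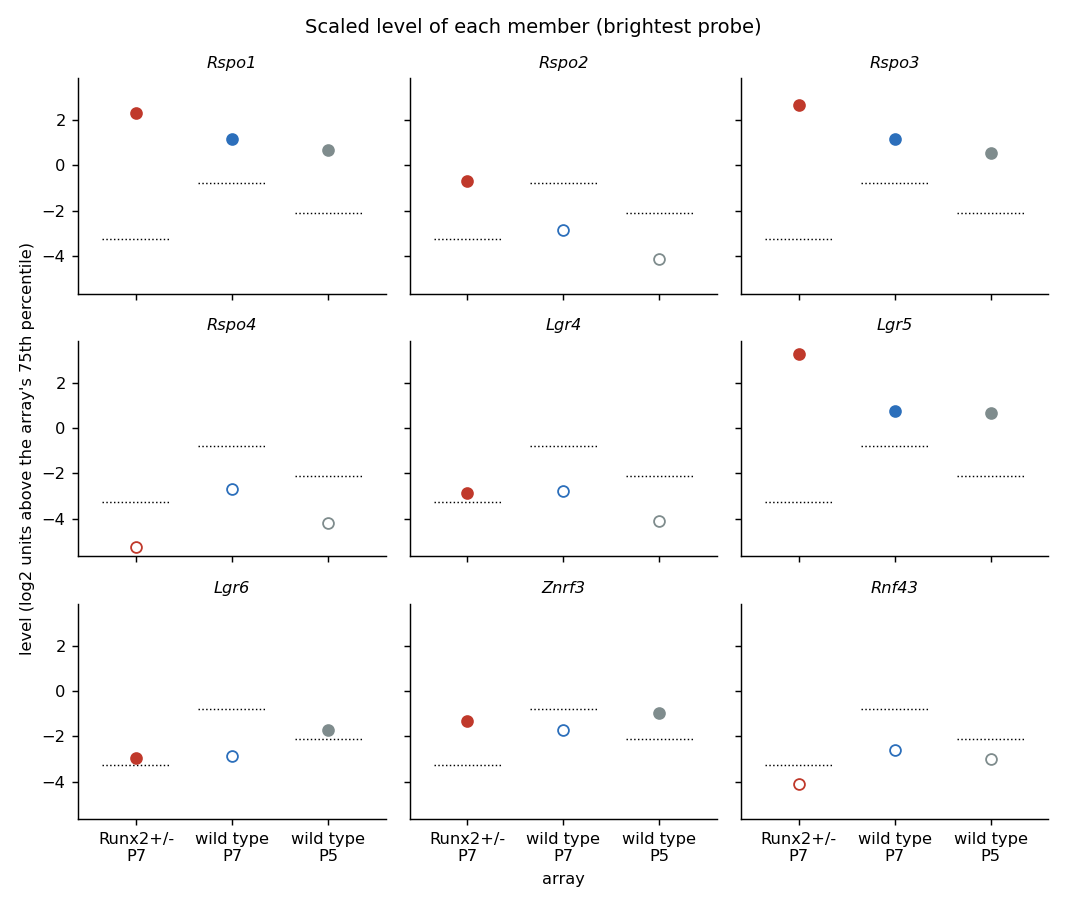
Level of each of the 9 genes, by its brightest probe, in log2 units above the 75th percentile of the array, on the Runx2+/- P7, wild-type P7 and wild-type P5 arrays. Dotted lines mark the lowest level well above background on each array, and open points are not well above it. The line is highest on the wild-type P7 array, at -0.78, where 3 genes lie above it.

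In all, 7 of the 9 genes were well above background on the Runx2+/- P7 array, 3 on the wild-type P7 array and 5 on the wild-type P5 array, and 3 were so on every array. Of all probes, 47.3%, 29.2% and 40.1% were well above background on these arrays, in that order. For Runx2+/- P7 against wild-type P7, 4 members have an order, 3 were at least 2-fold higher and 0 lower, and 5 have no order. Among all 14420 genes with an order in that comparison, 5.2% were at least 2-fold higher, 13.8% lower and 19.0% apart in either direction. Over the 3 members measured on both arrays the median log2 difference was 1.5, against 0.10 over all 12915 such genes. Members too dim for the wild-type P7 array could not enter that median. For wild-type P7 against P5, 3 members have an order and 0 were 2-fold apart, while 6.33% of 14332 genes were at least 2-fold higher and 3.29% lower (9.61% in all). The members' median was 0.46, against 0.08 over all genes measured on both wild-type arrays.

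The Runx2+/- P7 and wild-type P5 arrays differ in genotype and age together, and each also enters another comparison, so these values are not independent of those above. Here 6 members have an order, of which 4 were at least 2-fold higher and 1 lower, where 8.67% of 18148 genes were higher and 15.4% lower (24.0% in all). Lgr5 was 6.18-fold higher (log2 difference 2.63), Rspo3 4.38-fold higher (2.13), Rspo1 3.09-fold higher (1.63) and Rspo2 at least 2.72-fold higher, while Lgr6 was the lower one.

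Within the distribution of all 12915 genes measured on both P7 arrays, Lgr5 had the 6th highest difference, Rspo3 the 98th and Rspo1 the 297th. The same genes were then split by mean level into 8 groups of near equal size. Rspo3 and Lgr5 fell in a group of 1614 genes with a median difference of 0.29 and a 95th percentile of 1.03, and Rspo1 in a group of 1615 genes with a median of 0.22 and a 95th percentile of 0.996. In these groups Lgr5 ranked 4, Rspo3 ranked 14 and Rspo1 ranked 48 from the highest. For wild-type P7 against P5 the ranks among 12873 genes were 6374 for Lgr5, 1818 for Rspo3 and 2804 for Rspo1, with no member near either end.

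**Figure D3:**
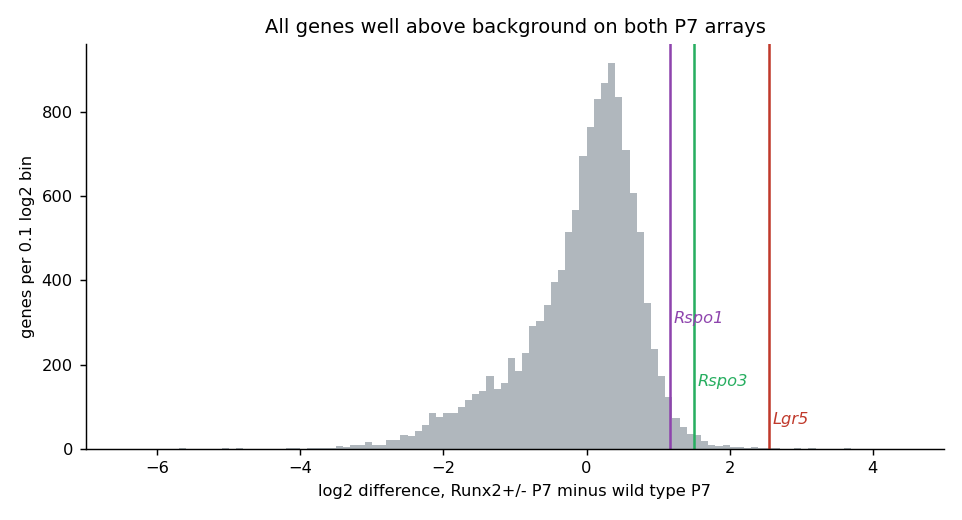
Histogram of the log2 difference, Runx2+/- P7 minus wild-type P7, of the 12915 genes well above background on both arrays, in bins of 0.1. Vertical lines mark Rspo1 at 1.16, Rspo3 at 1.5 and Lgr5 at 2.55, in the right tail.

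How far the differences depend on processing was examined with 14 alternatives that change values of some genes. For Lgr5, Rspo3 and Rspo1, the mean over probes, the 3′ probe and no floor gave exactly the value used here. So did the positive and significant flag, the stricter filter and no filter. Each had only its brightest probe well above background, on every array, so these alternatives could not move the difference. Keeping outlier spots left it nearly unchanged, and the counts below include such repeats. The genotype difference stayed above 0 in all 14 for each of the 3 genes. It ranged from 1.75 to 2.55 for Lgr5, from 1.0 to 1.71 for Rspo3 and from 0.62 to 1.34 for Rspo1. It was at least 2-fold in 14 of them for Lgr5, in 13 for Rspo3 and in 12 for Rspo1. The exceptions for Rspo1 were cyclic loess (log2 difference 0.95) and normexp background correction with median scaling (0.62), and normexp with median scaling was also the exception for Rspo3. The rank from the highest among the genes compared lay between 6 and 41 for Lgr5, 71 and 552 for Rspo3 and 201 and 2095 for Rspo1. With both normexp settings Rspo3 ranked 477 and Rspo1 2095 of 12903 genes. The genotype difference of all genes moved too. With normexp and the 75th percentile its median was 0.68, and relative to that median Lgr5 stood at 1.78, Rspo3 at 1.04 and Rspo1 at 0.66. With that setting 89.2% of the genes 2-fold apart were higher in Runx2+/-, against 27.4% in the scaling used here and 15.1% with cyclic loess. For wild-type P7 against P5 the share of genes higher was 65.8% here, 3.30% with normexp and the 75th percentile and 35.2% with normexp and median scaling. For Runx2+/- P7 against wild-type P5 it was 36.1% here, and ran from 9.65% with normexp and median scaling to 69.6% with normexp and the 75th percentile. In the age comparison Lgr5 changed sign between alternatives, from -0.07 to 0.23, while Rspo3 stayed between 0.22 and 0.67 and Rspo1 between 0.12 and 0.49. For Runx2+/- P7 against wild-type P5 the lower bound for Rspo2 ran from 0.25 with normexp and the 75th percentile to 3.47 with the positive and significant flag as filter. Rspo2 had no order there with normexp and median scaling. The log2 difference of Lgr6 ran from -1.35 to -0.73 over the 13 alternatives that gave one. Against wild-type P7 Rspo2 kept an order, as higher in Runx2+/-, in 10 of the 14, and had none in the others.

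**Figure D4:**
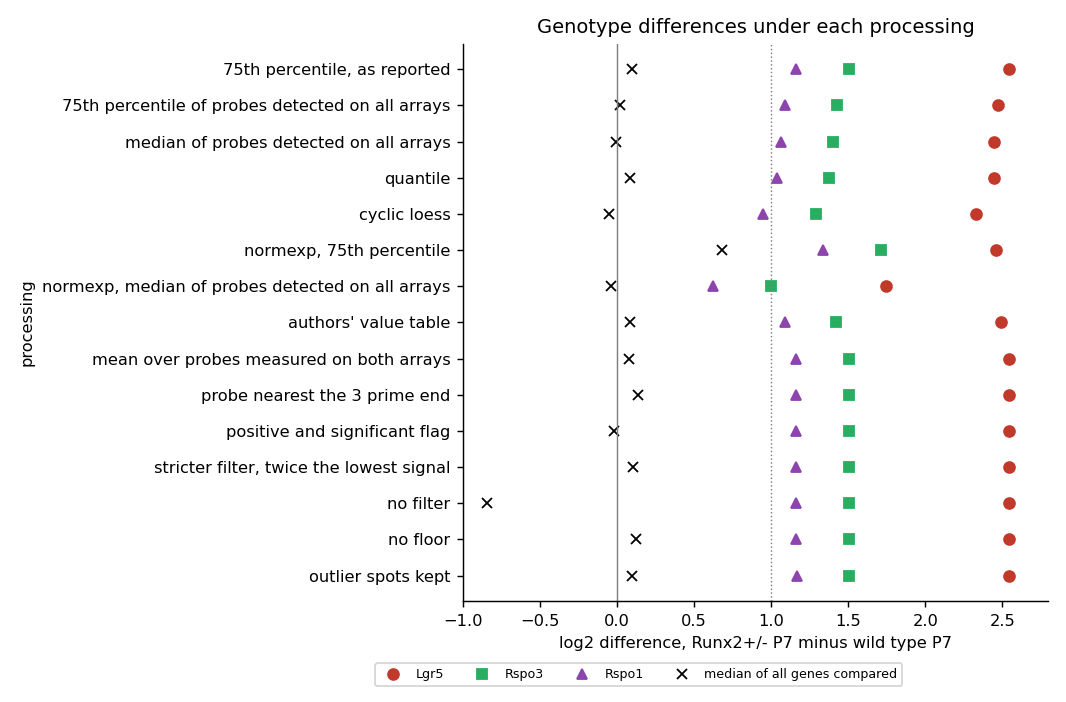
Log2 difference, Runx2+/- P7 minus wild-type P7, of Lgr5, Rspo3 and Rspo1 under the processing used and 14 alternatives (rows), with the median of all genes compared as crosses. The dotted line marks a 2-fold difference. Lgr5 stays right of it throughout, and the median of all genes reaches 0.68 with normexp and the 75th percentile and -0.84 with no filter.

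The pathway around these genes was followed through 6 lists with 86 genes. Over the 56 of them with an order between Runx2+/- P7 and wild-type P7, 3 (5.36%) were at least 2-fold higher and 11 (19.6%) lower, against 5.2% and 13.8% of all genes, with a median of -0.04 against 0.13 over all genes with an order. For wild-type P7 against P5, 1 of 55 (1.82%) was higher and 0 lower, against 6.33% and 3.29% of all genes, with a median of 0.17 against 0.03. These shares of all genes are also the background for the counts in each single list.

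The Frizzled receptors and their coreceptors are the proteins that Znrf3 and Rnf43 remove. Of 11 with an order between the P7 arrays, 0 were at least 2-fold higher and 1 lower, with a median of 0.24 that lay between 0.05 with no filter and 0.92 with normexp and the 75th percentile. Lrp5, a Wnt coreceptor that controls bone mass, was the lower one, with 440.5 on the Runx2+/- P7 array and 227.2 on the wild-type P7 array (log2 difference -1.49). Lrp6 gave 2837.4 on the Runx2+/- P7 array and 422.1 on the wild-type P7 array, a log2 difference of 0.30. Between Runx2+/- P7 and wild-type P5, Fzd1 (1.54), Fzd7 (1.21) and Fzd9 (1.20) were the receptors at least 2-fold higher with the largest log2 differences, and Fzd5 (-1.68) the one lower by most, though Fzd7 turned negative with normexp and median scaling and Fzd5 positive with its 3′ probe.

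Genes that Wnt/beta-catenin signalling commonly induces include many feedback inhibitors. Of 10 with an order between the P7 arrays, 4 were at least 2-fold lower in Runx2+/- and 1 higher, and 2 had a difference above 0, with a median of -0.66, though that median was 0.08 with normexp and the 75th percentile. Notum, a secreted enzyme that inactivates Wnt proteins, gave 497.2 on the Runx2+/- P7 array and 407.7 on the wild-type P7 array (log2 difference -2.16). Tcf7, a transcription factor of the pathway, gave 67.9 on the Runx2+/- P7 array and 49.4 on the wild-type P7 array (-1.99). Dkk1, a secreted inhibitor of the coreceptors, gave 76.9 on the Runx2+/- P7 array and 39.1 on the wild-type P7 array (-1.48). Nkd1, an inhibitor within the cell, was higher with its brightest probe (log2 difference 1.31), while its other probe was lower by at least 4.57 log2 units, so the direction for Nkd1 is not settled. Axin2, a widely used readout of the pathway, cleared the background on no array, and was listed at 11.5, 3.05 and 6.45 on the Runx2+/- P7, wild-type P7 and wild-type P5 arrays.

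Of 16 genes of beta-catenin signal transduction, 3 were at least 2-fold lower in Runx2+/- and 0 higher at P7, with a median of -0.01. The lower ones were Dvl3 (log2 difference -2.33), Tcf7l2 (-1.76, but -0.27 with another probe) and Apc (-1.13). Ctnnb1, which encodes beta-catenin, had a log2 difference of 0.66. Tcf7l2 was also the gene 2-fold higher in wild-type P7 than in P5 (1.06), where another of its probes gave -0.54.

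Other proteins reported to bind R-spondins or Lgr receptors, or to act on the ligases, include heparan sulphate proteoglycans. The list made of them also holds Dlk1, for which no such role is claimed here. Of 12 genes of the list with an order, 2 were at least 2-fold higher in Runx2+/- at P7 and 1 lower. The median was 0.44, which was -0.19 with normexp and median scaling. Dlk1, a membrane protein of progenitor cells, gave 5675 on the Runx2+/- P7 array and 430.5 on the wild-type P7 array (log2 difference 1.27, and 0.51 with its other probe). Gpc4, a glypican, gave 154.2 on the Runx2+/- P7 array and 14.1 on the wild-type P7 array (1.0). Its relative Gpc1 gave 7367 and 3012 on these arrays (-1.16). With normexp background correction, Gpc4 changed sign under median scaling and Gpc1 under the 75th percentile. The hormone receptors of the same leucine-rich repeat family, Fshr, Lhcgr, Tshr, Rxfp1 and Rxfp2, were well above background on no array.

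Of the Wnt ligands, 7 of 19 had an order between the P7 arrays, 2 were at least 2-fold lower in Runx2+/- and 0 higher, with a median of -0.38. That median lay between -1.94 with no filter and -0.02 with normexp and the 75th percentile. Wnt10b, a ligand that promotes bone formation, gave 19.7 on the Runx2+/- P7 array, 25.2 on the wild-type P7 array and 84.9 on the wild-type P5 array, with a log2 difference of -2.81 for Runx2+/- P7 against wild-type P7. Wnt1 was the other lower ligand (-1.66). Between Runx2+/- P7 and wild-type P5, Wnt10b (-3.37), Wnt4 (-1.94) and Wnt1 (-1.07) were lower and Wnt16 higher (1.1), the last of these turning negative with normexp and median scaling.

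By the pair of log2 differences, age and genotype, over the 3 arrays, Rspo1, Rspo3 and Lgr5 were each set against the 53 pathway genes well above background throughout. The genes closest to Rspo1 were Gpc4 (Euclidean distance 0.23 log2 units), Fzd9 (0.30) and Csnk1d (0.47, but 1.86 with its other probe). Closest to Rspo3 were Gpc4 (0.50), Fzd9 (0.67) and Nkd1 (0.76). For Lgr5 they were Nkd1 (1.25), Dlk1 (1.35, but 2.04 with its other probe) and Fzd9 (1.60). With the other Nkd1 probe, whose differences are bounds, Nkd1 lay at least 6.70 from Rspo3 and at least 7.87 from Lgr5. The ranking was recomputed under the alternatives, a step chosen after seeing the data. With both normexp settings Gpc4 ranked 16 from Rspo1 and 19 from Rspo3, and Nkd1 ranked 10 from Rspo3 and 17 from Lgr5. Over the alternatives that gave a distance, Fzd9 stayed among the 3 nearest in 14 of 14 for Rspo3, 12 of 14 for Rspo1 and 12 of 14 for Lgr5. Many of these alternatives repeat the distance used here, as they shift all genes of an array by a common amount or change only the filter.

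Markers of several cell types moved along with these differences, and their part in them was not tested. In bulk tissue, fewer cells of a type and less RNA per cell cannot be told apart. Of 12 osteoblast genes, 10 were at least 2-fold lower in Runx2+/- at P7, and their summed level (linear units of the array's 75th percentile) was 277.2 on the Runx2+/- P7 array, 1375 on the wild-type P7 array and 910.7 on the wild-type P5 array. Suture mesenchyme genes had sums of 108.6, 120.1 and 84.3 on these arrays, with 2 of 7 lower. Of 8 chondrocyte genes, 4 were at least 2-fold higher in Runx2+/- at P7 and 0 lower, with sums of 53.9 on the Runx2+/- P7 array, 34.6 on the wild-type P7 array and 25.3 on the wild-type P5 array. The numbers of them well above background were 8, 5 and 7 on the same arrays, with Sox9, Matn1 and Cnmd under that limit on the wild-type P7 array. Col2a1, the main cartilage collagen, gave 1905 on the Runx2+/- P7 array, 66.9 on the wild-type P7 array and 60.7 on the wild-type P5 array. Of 8 endothelial genes, 5 were higher and 1 lower, with sums of 210.4, 120.4 and 124.2. Of 6 leptomeningeal genes with an order, 2 were higher and 0 lower, with sums of 143.1, 79.2 and 106.2.

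Of 10 neutrophil genes, 7 were higher and 1 lower in Runx2+/- at P7, with sums of 355.1 on the Runx2+/- P7 array, 79.3 on the wild-type P7 array and 915.6 on the wild-type P5 array. Macrophage and osteoclast genes had sums of 198.6, 364.5 and 203.4 on the same arrays, with 1 of 8 higher and 4 lower. Skin, muscle and neural lists had sums of 17.0, 4.67 and 6.12 on the Runx2+/- P7 array. On the wild-type P7 array the sums were 52.3, 5.01 and 6.67, and on the wild-type P5 array 62.3, 7.49 and 14.6. Between the P7 arrays, 1 of 2 skin genes with an order, 0 of 3 muscle genes and 2 of 6 neural genes were lower, and 0 were higher. Only 1 of 8 skin genes was well above background on the wild-type P7 array, and the sums include genes that were not. The arrays also differed in sex-linked transcripts. Xist gave 14.5 on the Runx2+/- P7 array, 87.4 on the wild-type P7 array and 283.6 on the wild-type P5 array, and the Y-linked Ddx3y gave 428.9, 3.28 and 28.4. The labels used here give no sex, and sex and genotype cannot be told apart in these arrays.

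**Figure D5:**
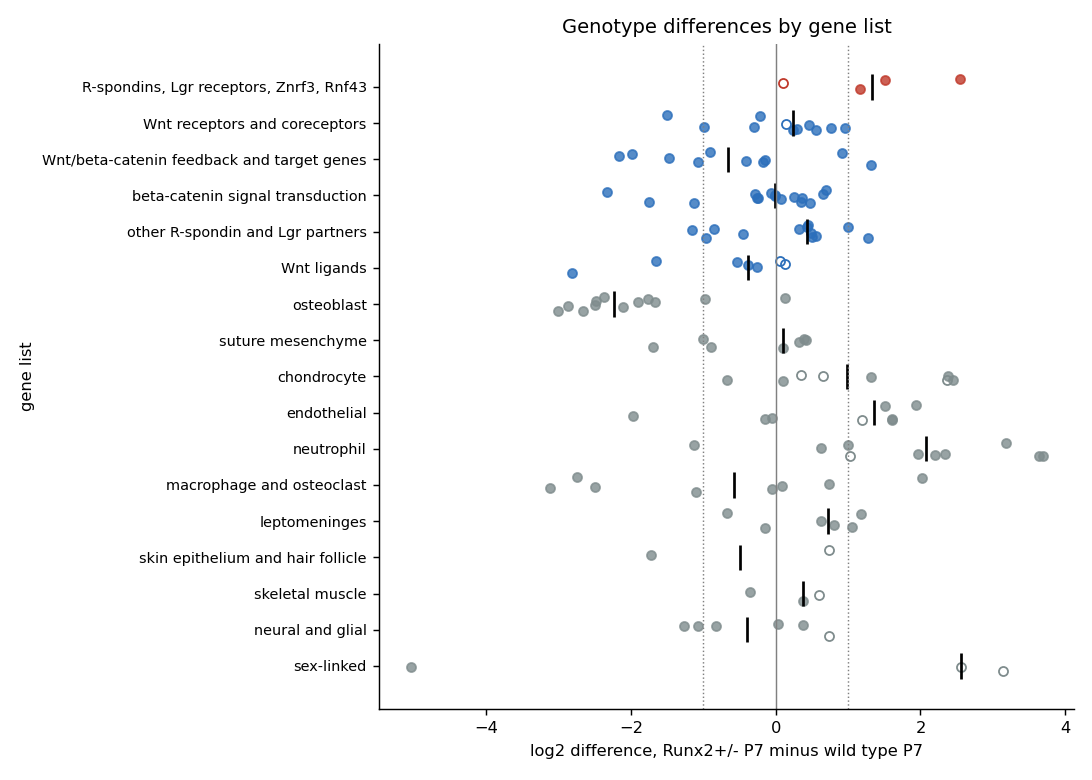
Log2 difference, Runx2+/- P7 minus wild-type P7, of each gene with an order in the member list, the pathway lists and the cell type lists (rows). Open points are lower bounds, black bars are list medians and dotted lines mark 2-fold. Rspo1, Rspo3 and Lgr5 lie right of the upper line, and 10 of 12 osteoblast genes lie left of the lower one.

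The RefSeq promoter table (GRCm38.p6) held the 250 bases before the start of 5 of the 9 genes, Rspo1, Rspo4, Lgr4, Lgr6 and Rnf43. A script searched them on both strands for the Runx motif TGTGGT and the Tcf/Lef motif CTTTGAT. The Runx motif occurred in 14.0% of all 32851 promoters in the table and the Tcf/Lef motif in 3.21%. Neither occurred in a window of these 5 genes, which says only that these letters are not in it.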

How the data were processed

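RNA of 3 posterior frontal suture samples, 1 per group as the labels give them, was read on 1 slide, so no batch could be tested. The file headers name Feature Extraction 10.7.1.1 as the scanner software, where the submitters' processing notes name 9.5.1.1. What the authors deposited per spot is a linear intensity, the processed signal, which per the file headers was already corrected for background, with its error and flags. Their table of processed values, of unstated normalization, served only as an alternative. Control and outlier spots were left out, spots of a probe averaged as log2 values computed here from the deposited intensity, and each array's 75th percentile subtracted. Each gene's brightest probe stood for it. Of 55680 probes, 27229 were named through their RefSeq accession (GRCm38.p6 names), and the others kept the files' name. Differences of at least 2-fold were counted, with no test, since 1 array per group allows none. Precision is limited by the number of arrays. Members, gene lists and alternatives were chosen with earlier results of these data known. Named genes are all members and, per list and comparison, up to 4 genes at least 2-fold apart with the largest measured differences. Lrp6, Ctnnb1, Axin2 and the cell type genes were named after their values were seen. Python 3.11.15, R 4.3.3 and limma 3.58.1 (normexp with offset 50, quantile and cyclic loess) were used. The rule for differences was tested on simulated levels with known changes. Scaling, background handling, outlier removal and probe choice were not part of that test.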

Additional observations from a re-analysis of the deposited data

How the results depend on the processing

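With 1 array per group nothing could be left out, and dim probes limit most members. No paired analysis was possible because each group has 1 array. The count of members 2-fold apart was 3 for Runx2+/- P7 against wild-type P7. It was 1 with normexp and median scaling and at a 3-fold threshold, and 2 with cyclic loess. It was 4 with no floor, 5 with the positive and significant flag as filter and 6 with no filter. For wild-type P7 against P5 it was 0, and became 1 with that flag, with no floor and at 1.5-fold, and 4 with no filter. For Runx2+/- P7 against wild-type P5 it was 5, and became 3 with normexp and the 75th percentile, with the stricter filter and at 3-fold. It was 4 with quantile scaling, cyclic loess and normexp with median scaling, 6 with no floor, 7 with the flag and 8 with no filter. For pathway genes and all genes, smaller changes under other settings are left out below. For genotype, the 14 pathway genes became 33 with no filter, 23 at 1.5-fold and 6 at 3-fold. The 1 pathway gene of the age comparison became 0 with a 75th percentile taken over probes detected throughout, both normexp settings, the mean over probes and 3-fold, 2 with cyclic loess and the 3′ probe, 4 with the authors' table, 8 with the flag, 20 with no filter, 3 with no floor and 16 at 1.5-fold. For genotype and age together the 19 became 11 with normexp and the 75th percentile, 35 with no filter, 36 at 1.5-fold and 6 at 3-fold. Over all genes, the genotype count of 2738 became 4871 with normexp and the 75th percentile, 7606 with the flag, 18425 with no filter, 4352 with no floor, 5867 at 1.5-fold and 1156 at 3-fold. The age count of 1378 became 435 with normexp and median scaling, 5458 with the flag, 816 with the stricter filter, 15132 with no filter, 2411 with no floor, 3935 at 1.5-fold and 441 at 3-fold. The count of 4361 for genotype and age together became 2317 with normexp and the 75th percentile, 9118 with the flag, 16535 with no filter, 8926 at 1.5-fold and 1393 at 3-fold. Among named pathway genes at least 2-fold apart, 6 differences changed sign: for genotype Gpc1 (0.0775, normexp with the 75th percentile), Gpc4 (-0.21, normexp with median scaling) and Nkd1 (-4.57, 3′ probe), and against wild-type P5 Fzd7 (-0.0086) and Wnt16 (-0.29) with normexp and median scaling and Fzd5 (0.22, 3′ probe). Smaller differences of named genes changed sign too, such as Axin1 for genotype (-0.29, normexp with median scaling). Filters change which genes are compared and thresholds which of them are counted, and the cause of the other shifts was not tested.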
